A study of Caenorhabditis elegans with 2 samples.

Results

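The V-type proton ATPase, the mitochondrial ATP synthase and the respiratory chain were examined here as 57 of the 19973 nuclear protein-coding genes of Caenorhabditis elegans. The 57 genes are all those whose symbol in the Ensembl annotation of ce11 starts with vha- (20 genes, V-ATPase) or with atp-, nuo-, nduf-, cox- or ucr- (37 genes, mitochondrial complexes). The rule uses symbols alone and no ChIP value. The measurement is ChIP-seq of RNT-1, the worm's RUNX transcription factor, in 2 biological replicates of whole hermaphrodite late embryos, 5 h after synchronization by bleaching. All animals were of strain OP462, which carries the mutation unc-119(tm4063) on chromosome III and the transgene wgIs462. The transgene supplies RNT-1 with GFP and FLAG at its C terminus, and chromatin was precipitated with an antibody against GFP. Both replicates form 1 group, and no untagged or mutant group was compared here. Whole animals mix all cell types, so a signal cannot be assigned to a tissue.

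V-ATPases are rotary pumps that use ATP to acidify lysosomes, endosomes and the lumen next to some epithelia. Their cytosolic V1 sector splits ATP, and their membrane Vo sector carries the protons. The mitochondrial ATP synthase is a related rotary machine that runs in the opposite direction, making ATP from the proton gradient that respiratory complexes I, III and IV build. RNT-1 is known mainly as a regulator of how the stem-like seam cells of the epidermis divide.

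The authors' list filtered by irreproducible discovery rate (IDR), a measure of agreement between ranked lists, held 1931 peaks, 1923 of them nuclear, with signals down to 95.8. The other 8 lay on the mitochondrial chromosome, where the list of replicate 2 had 0 regions, so a place in the IDR list does not by itself mean a region in both replicate lists. All 17 genes described as bound had a region in both. Each bound gene described here has the same signal in the IDR and pooled lists. The pooled list of both replicates held 19793 regions and the lists of replicates 1 and 2 held 18427 and 21390, all with background regions included. The signal is the authors' own value with no stated scale, so it is compared only within a list, and across lists by rank. Read depth is unknown from these lists. A gene is called bound when an IDR summit, the highest point of a peak, fell in its start window. That window runs from 1000 bp upstream to 200 bp downstream of each start in the annotation.

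The base sequence at the summits is shown first for 7 bound genes, 4 of the V-ATPase and 3 of the mitochondrial complexes, to show the words searched for in place. The window of vha-13 is left out because it overlaps annotated exons. Those of cox-6B and ucr-2.1 overlap none and hold none of the words, and they are not printed either. The printed windows are therefore a selection and do not show how common a word is. No word was found at all 5 V-ATPase summits. Each run is 101 bases centred on the IDR summit, ce11, plus strand, which is the coding strand of each of these genes. None of the printed windows overlaps an annotated exon, piRNA loci aside. They were read from RefSeq's WBcel235 genome. Capitals mark any of 6 words on either strand: TGCGGT or TGTGGT as forms of the RUNX core, the repeat GAGAGA, the word ACGCAG, the E-box core CACGTG and the word GGTCTC.
vha-8, chrIV:6790565-6790665: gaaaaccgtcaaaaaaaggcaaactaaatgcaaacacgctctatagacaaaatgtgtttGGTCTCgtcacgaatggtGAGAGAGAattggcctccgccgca
vha-1, chrIII:9780810-9780910: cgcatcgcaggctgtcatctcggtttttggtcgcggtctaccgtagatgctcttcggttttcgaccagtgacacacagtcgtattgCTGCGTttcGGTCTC
vha-12, chrX:4190725-4190825: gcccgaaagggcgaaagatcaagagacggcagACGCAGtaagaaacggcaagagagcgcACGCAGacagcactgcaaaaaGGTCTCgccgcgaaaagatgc
vha-15, chrX:2237617-2237717: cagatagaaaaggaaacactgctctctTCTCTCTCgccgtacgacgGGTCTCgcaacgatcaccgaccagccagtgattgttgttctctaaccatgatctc
atp-2, chrIII:5228135-5228235: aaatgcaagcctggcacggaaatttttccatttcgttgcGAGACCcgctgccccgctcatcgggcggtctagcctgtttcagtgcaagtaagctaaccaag
cox-5A, chrIII:12905152-12905252: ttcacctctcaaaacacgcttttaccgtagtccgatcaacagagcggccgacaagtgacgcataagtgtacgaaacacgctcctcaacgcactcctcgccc
ucr-2.2, chrX:15173639-15173739: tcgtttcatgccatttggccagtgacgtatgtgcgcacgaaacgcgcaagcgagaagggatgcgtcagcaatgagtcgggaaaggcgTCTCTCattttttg

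Neither form of the RUNX core lay within 50 bp of any of the 5 V-ATPase summits. Of the 12 mitochondrial summits, 1 held TGCGGT, that of atp-4, and none held TGTGGT. Either form was at 14.8% of all 1923 nuclear IDR summits, and at 5.04% of windows of 101 bases centred 300 bp upstream of the outermost start of each of the 19973 genes. The E-box core CACGTG was at no member summit, against 3.12% of all nuclear summits and 1.56% of the upstream windows. GAGAGA was at the V-ATPase summits of vha-8, vha-13 and vha-15 and at the mitochondrial summit of ucr-2.2. It was at 29.7% of all nuclear summits and 6.11% of upstream windows. ACGCAG was at the V-ATPase summits of vha-1 and vha-12, with more than 1 copy at vha-12, and at the mitochondrial summit of atp-3. It was at 14.2% of all nuclear summits and 2.46% of upstream windows.

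The word GGTCTC was picked after the windows had been read, so its counts are a description only. It stood at 4 of the 5 V-ATPase summits, those of vha-1, vha-8, vha-12 and vha-15, and at 1 of the 12 mitochondrial summits, that of atp-2. It was at 8.37% of all nuclear summits, 10.8% of the 1062 summits in a protein-coding start window and 2.95% of the upstream windows. The word is in none of the printed windows of cox-5A and ucr-2.2. Median G+C content within 50 bp of the summit was 54.5% for the V-ATPase, 53% for the mitochondrial complexes and 49.5% for all nuclear summits.

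Of the 57 genes, 17 were bound, or 29.8% (95% Wilson interval 19.5 to 42.7), beside 6.76% of all nuclear protein-coding genes. The V-ATPase had 5 of 20 bound, 25% (11.2 to 46.9), and the mitochondrial complexes had 12 of 37, 32.4% (19.6 to 48.5). The difference, V-ATPase minus mitochondrial complexes, was -7.43 percentage points with a 95% Newcombe interval from -28.6 to 17.9. This interval spans 0, and genes are not replicates, so no test of the difference was run and the groups are not shown to differ or to be alike. The intervals cover counting error only, over genes that can share a peak with a neighbour.

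**Figure D1:**
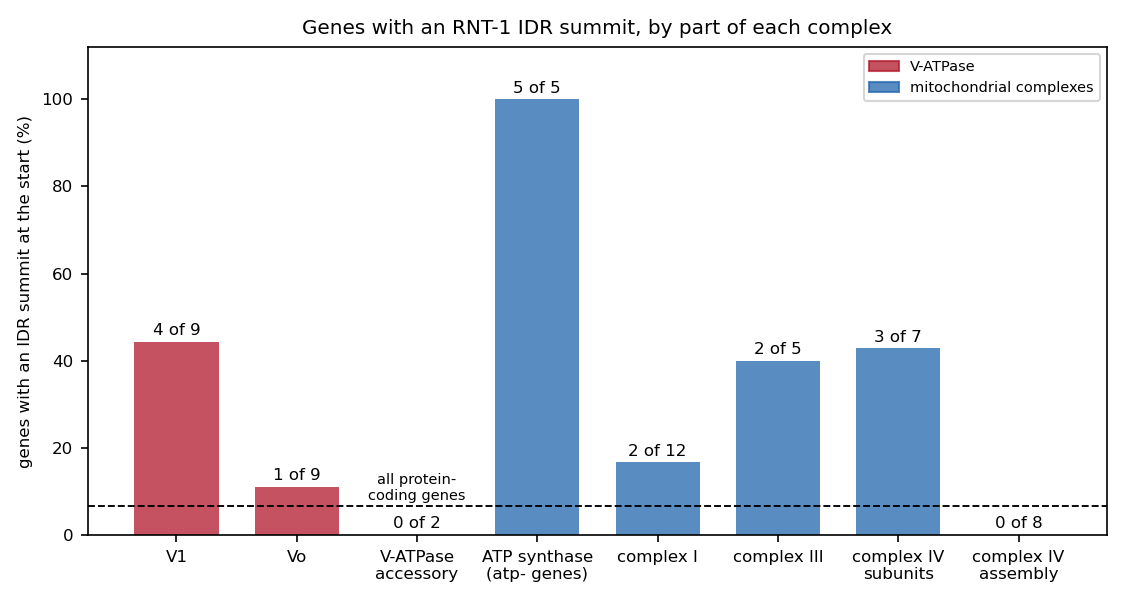
Bars show the percent of genes with an IDR summit in the start window, by sector or complex, with counts above them, V-ATPase in red and mitochondrial complexes in blue. The dashed line is the 6.76% of all nuclear protein-coding genes; all 5 atp- genes and none of 8 complex IV assembly genes had a summit, and genes with other symbols are not drawn.

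Within the V-ATPase, bound genes lay mostly in the V1 sector, with 4 of 9, against 1 of 9 in the Vo sector and 0 of 2 accessory genes. The 95% intervals of the shares, 18.9 to 73.3% for V1 and 1.99 to 43.5% for Vo, overlap, and no test of sectors or complexes against each other was run. The sector counts also depend on the setting. A window of 2000 bp upstream to 500 bp downstream added the Vo genes vha-2 and vha-3. With summits assigned to the nearest start, the V1 gene vha-8 was lost. The V1 gene vha-8, which encodes the E subunit of the peripheral stalk, had the highest V-ATPase signal, 186 in the IDR list. In the replicate lists its region had signals of 102 in replicate 1 and 82.0 in replicate 2, ranks 613 and 356. The gene, WBGene00006917, lies on chromosome IV from 6791074 to 6792455, and the summit 459 bp upstream of its start. That summit is closer to the start of C17H12.2, at 127 bp, than to that of vha-8.

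The catalytic A subunit gene vha-13 (WBGene00013025) followed with an IDR signal of 152, and 82.2 in replicate 1 and 71.8 in replicate 2. Its summit lay 553 bp upstream on chromosome V, in the 3′ UTR of the neighbouring gene cept-2. The B subunit gene vha-12 (WBGene00006921), whose product forms the ATP-splitting ring with A, had an IDR signal of 135, with 68.0 in replicate 1 and 67.6 in replicate 2. Both had the start of the V-ATPase gene as the nearest and no other protein-coding start window around the summit. The H subunit gene vha-15 (WBGene00020507), which encodes a regulator of V1 coupling, was the lowest with 111, and 64.4 and 42.1 in replicates 1 and 2. The bound V1 genes therefore covered both proteins of the ATP-splitting ring, A and B, together with the E and H subunits.

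In the Vo sector the bound gene was vha-1 (WBGene00006910), which encodes a c subunit of the proton-carrying ring. Its IDR signal was 146, with 86.7 in replicate 1 and 57.0 in replicate 2, and the summit lay 394 bp upstream, also in the start window of sqv-3. The c subunit gene vha-2 begins on the same strand, with 400 bp between the end of vha-1 and its start. The nearest IDR summit to vha-2 was that of vha-1, 1304 bp upstream. A similar tandem pair, vha-3 for another c subunit and vha-11 for the C subunit of V1, lies on chromosome IV with 892 bp between the genes. The nearest IDR summit, with a signal of 133, lay 1048 bp upstream of vha-3, just outside the window, and 2426 bp upstream of vha-11. A worm operon has been described for each pair, in which the first gene's promoter serves both genes.

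The other V-ATPase genes had regions below the IDR list or none. Pooled signals were 65.7 at vha-4, a proteolipid gene of the ring, 60.3 at vha-9 for the F subunit and 54.8 at vha-16 for the d subunit. They were 51.8 at vha-14 for the D subunit and 39.5 at the accessory gene vha-20. All 5 lie under 95.8, the lowest signal of the IDR list. No pooled region was found at 10 genes. These were vha-2, vha-3, vha-11, vha-10 for the G subunit, vha-17 for the e subunit, vha-18 for another H subunit, the accessory gene vha-19, and vha-5, vha-6 and vha-7. The last 3 encode a subunits, the large membrane proteins that differ between tissues. At vha-2 each replicate list had a region, at rank 16507 of 18427 in replicate 1 and 8666 of 21390 in replicate 2. At vha-19 the replicate signals were 23.5 and 21.3. The other 8 had no region in any list. The remaining a subunit gene, unc-32, which lacks the vha- symbol, had a pooled signal of 56.7 and no IDR summit.

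**Figure D2:**
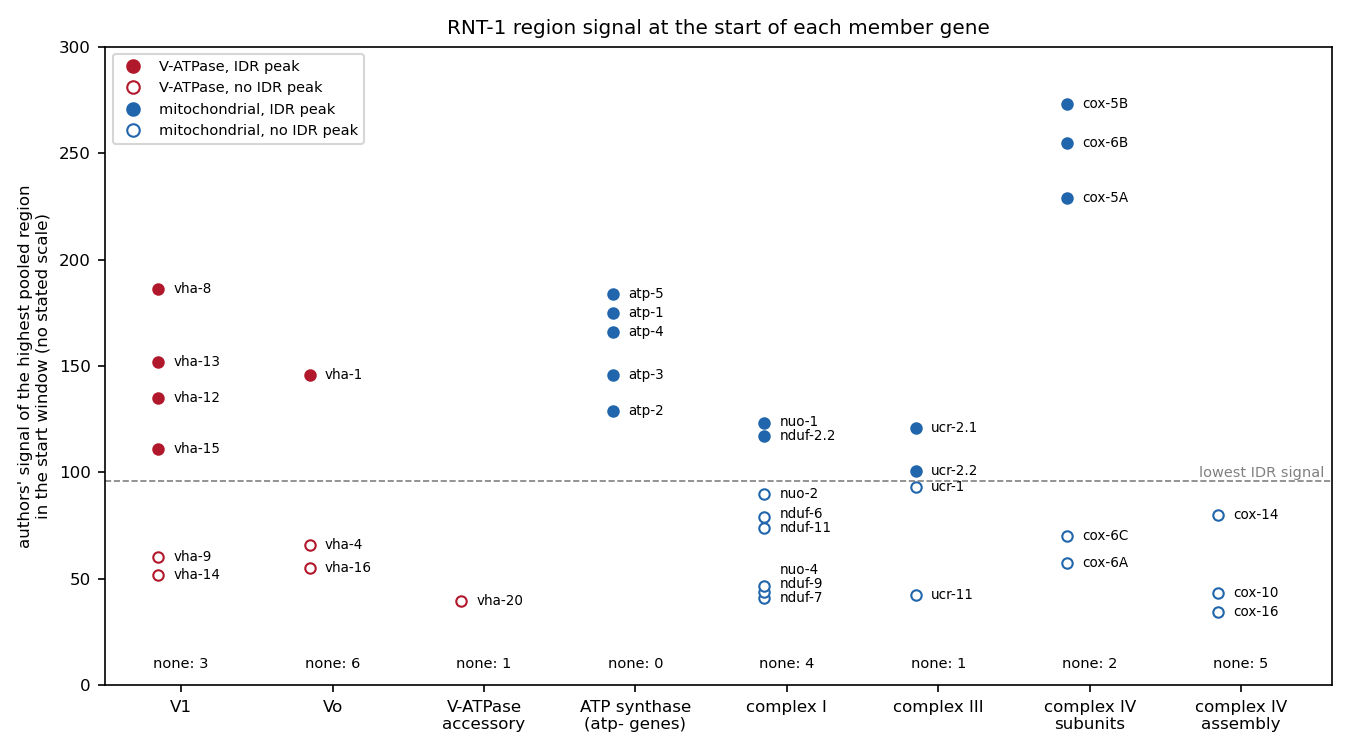
Each point is the authors' signal of the highest pooled region in a gene's start window, filled where the gene has an IDR peak, V-ATPase in red and mitochondrial complexes in blue. The dashed line is the lowest IDR signal, 95.8, "none" counts genes without a pooled region, and the highest points are cox-5B, cox-6B and cox-5A.

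All 5 nuclear genes with an atp- symbol were bound, a share whose 95% interval runs from 56.6 to 100%. ATP synthase subunit genes with other symbols, 0 of 5 bound, are outside this count. The atp- genes encode subunits of the ATP synthase, and their signals lay close together, between 129 and 184. The median over all 1351 bound genes was 145. The gene atp-5, for the d subunit of the stalk, had an IDR signal of 184, with 110.2 in replicate 1 and 70.0 in replicate 2. At atp-1, for the alpha subunit, the values were 175 in the IDR list, 104 in replicate 1 and 75.5 in replicate 2. The coupling factor gene atp-4 had 166, with 85.5 and 75.1 in replicates 1 and 2. The gene atp-3, for the subunit that joins stalk and head, had 146, with 76.7 and 66.1. The catalytic beta subunit gene atp-2 was lowest with 129, and 75.1 and 49.0.

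The positions at the atp- genes differed. Summits lay 9 bp downstream of the start of atp-1, inside its 5′ UTR, and 15 bp upstream of the nearest start of atp-3. Those of atp-2, atp-5 and atp-4 lay 232, 275 and 470 bp upstream. The atp-4 summit was the only one of the 5 with no other protein-coding start window around it, and it lay in the 3′ UTR of alh-4. The atp-5 summit was 44 bp from the start of lmtr-3, which was therefore closer. Position alone does not assign such peaks to 1 gene.

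Complex IV, cytochrome c oxidase, held the highest signals of all 57 genes, and these were at structural subunits. The gene cox-5B had an IDR signal of 273, with 155 in replicate 1 and 114 in replicate 2, and a summit 31 bp upstream of its start. The gene cox-6B had 255, with 158 and 93.1, and cox-5A had 229, with 122 and 103. All 3 ranked in the top 2.05% of replicate 1 and the top 1.18% of replicate 2. At cox-5A the summit lay 289 bp upstream, with no other gene's start window around it. The cox-6B gene has an annotated transcript that starts far upstream, from 2699663 to 2786859 on chromosome III. The summit lay 155 bp upstream of a start near the other end of the gene, inside an intron of the long transcript, and 99 bp from the start of Y71H2AM.20. It also fell in the window of nduc-2, a complex I gene.

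Of 7 cox- genes for complex IV subunits 3 were bound, and of 8 cox- genes for its assembly factors 0 were. Genes with other symbols, such as the bound copper chaperone gene sco-1, are outside these counts. Pooled signals of 69.9 at cox-6C and 57.4 at cox-6A lay under the IDR list. No pooled region lay at cox-4 or cox-7C. Among the assembly genes, cox-14 had 79.8, cox-10, for a heme-modifying enzyme, had 43.3 and cox-16 had 34.1. The others, cox-11, cox-15, cox-17, cox-18 and cox-19, had no pooled region. Their products act in copper delivery, heme modification or the placing of a subunit in the membrane. With these 8 genes left out, 12 of 29 mitochondrial genes were bound, 41.4% (Wilson interval 25.5 to 59.3). The V-ATPase had 5 of 20, 25% (11.2 to 46.9), with its 2 accessory genes, both unbound, kept in. Genes were left out on the mitochondrial side only, so these shares are not of like sets and their gap is not interpreted. The interval for 0 of 8, from 0 to 32.4%, includes the 6.76% of all nuclear protein-coding genes.

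The bound nuo- and nduf- genes of complex I and ucr- genes of complex III, 2 in each, had signals between 100.4 and 123. These were lower than those of the bound cox- genes. Bound genes of these complexes with other symbols, given below, had signals from 138 at isp-1 to 255 at nduc-2. Of the 12 nuo- and nduf- genes, 2 were bound. The flavoprotein gene nuo-1 had an IDR signal of 123, with 74.8 in replicate 1 and 46.7 in replicate 2, at a summit also in the windows of the ribosomal protein gene rpl-36.A and of nbs-1. The core subunit gene nduf-2.2 had 117, with 53.2 and 62.2, at a summit 875 bp upstream of its start and 568 bp from that of dlc-1. Below the IDR list, pooled signals were 89.7 at nuo-2, 79.1 at nduf-6, 74.0 at nduf-11, 46.6 at nuo-4, 43.6 at nduf-9 and 41.0 at nduf-7. No pooled region lay at nuo-3, nuo-5, nuo-6 or nduf-5.

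Of the 5 ucr- genes of complex III, the cytochrome bc1 complex, 2 were bound, and both encode core 2 proteins. The complex III genes isp-1 and cyc-1, which carry other symbols, were also bound and are described below. The gene ucr-2.1 had an IDR signal of 121, with 75.9 in replicate 1 and 43.3 in replicate 2, and ucr-2.2 had 100.4, with 64.0 and 35.6. The ucr-2.1 summit was nearer to the start of nmat-1. Just below the IDR list was ucr-1, the core 1 gene, with a pooled signal of 93.0, and ucr-11 had 42.2. The remaining core 2 gene, ucr-2.3, had no pooled region. The IDR list therefore ended between ucr-2.2 at 100.4 and ucr-1 at 93.0.

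Over the regions of the pooled list, 10 of 20 V-ATPase genes and 25 of 37 mitochondrial genes had one in the start window, 50% and 67.6%, beside 31.5% of all protein-coding genes. The median signal of the highest region was 88.5 for those 10 V-ATPase genes, 93.0 for those 25 mitochondrial genes and 50.2 for the 6284 genes with a region. As a share of the list, the median rank was 13.2% for the V-ATPase, 10.3% for the mitochondrial complexes and 31.7% for all genes with a region. Without replicate 2 the V-ATPase median was 31.8%, close to the 33.7% of all genes in the list of replicate 1, and the mitochondrial median was 12.3%. In the list of replicate 2 alone the medians were 14.7% for the V-ATPase, 10.6% for the mitochondrial complexes and 32.2% for all genes. The medians describe only genes with a region.

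Each replicate list was read on its own, down to the length of the whole IDR list. In replicate 1, one of the 1931 strongest regions lay at 5 V-ATPase and 12 mitochondrial genes, beside 6.64% of all genes. In replicate 2 it lay at 5 V-ATPase and 11 mitochondrial genes, also beside 6.64%. In both it lay at 5 and 10, beside 5.16% of all genes. The single-replicate genes were nuo-2 and ucr-2.2 in replicate 1 and nduf-2.2 in replicate 2. At nuo-2 the region ranked in the top 6.31% of replicate 1 and the top 55% of replicate 2, and cox-6A was at 10.9% and 35.6%. At vha-9 the order was the other way, 75.9% in replicate 1 and 11.6% in replicate 2. By percent of list, 14 of the 17 bound genes stood higher in replicate 2 than in replicate 1, all 5 V-ATPase genes among them. By rank alone, without regard to the longer list of replicate 2, it was 9 of the 17, with 3 of the 5 V-ATPase genes among them. The summits of the replicates at the 17 bound genes lay 2 to 45 bp apart, with a median of 19 bp. From the IDR summit a replicate summit lay up to 86 bp away, farther than the 50 bp searched for words. That was at nuo-1, with the IDR summit 363 bp upstream and the replicate summits 277 and 308 bp upstream.

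**Figure D3:**
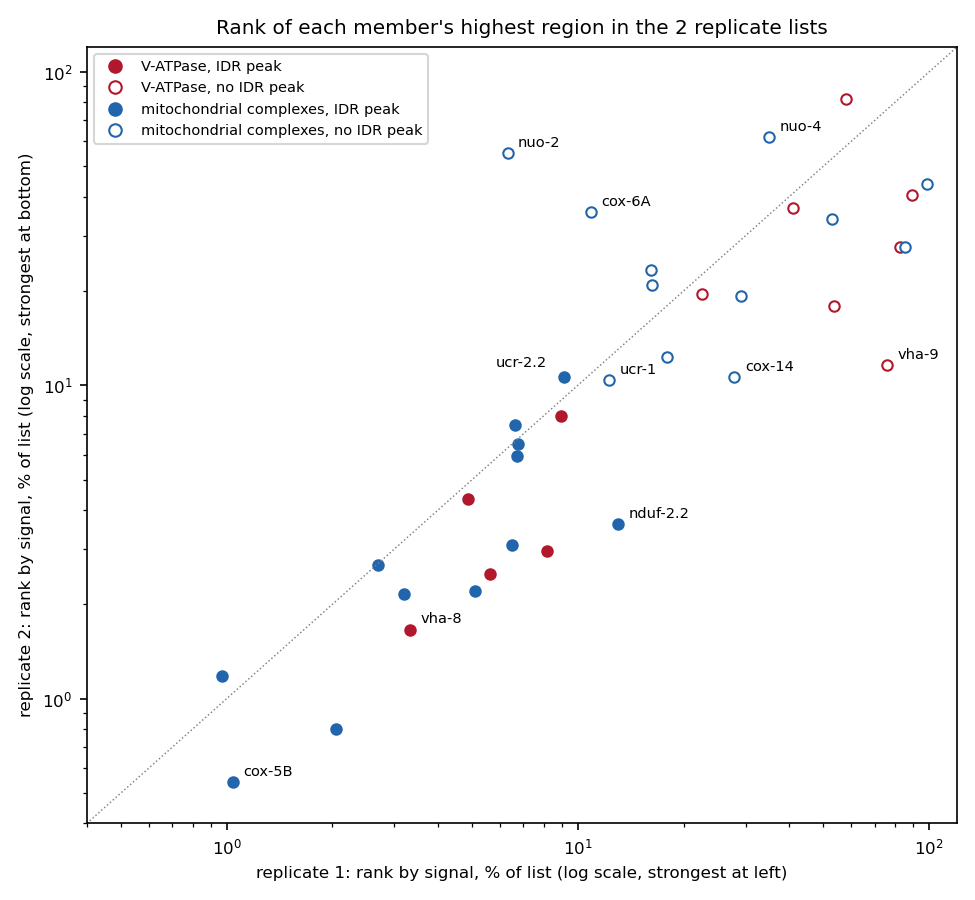
Each of the 36 points is a gene with a region in both replicate lists, placed by the rank of its highest region as a percent of each list, on log axes with the strongest at the lower left. Filled points, the genes with an IDR peak, reach to 13% in replicate 1 and 10.6% in replicate 2, and nuo-2 and vha-9 lie far from the dotted line of equal rank.

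Most summits lay upstream of the starts, in a window that itself reaches 1000 bp upstream and only 200 bp downstream. All 5 V-ATPase summits were upstream, 244 to 553 bp from the start with a median of 394 bp. Of the 12 mitochondrial summits 11 were upstream and that of atp-1 downstream, and the 12 lay 9 to 875 bp from the start with a median of 251 bp. No other protein-coding start window held the summit at 3 of 5 V-ATPase genes and 4 of 12 mitochondrial genes, beside 52.3% of all bound genes. The gene's own start was the nearest protein-coding start at 4 of 5 V-ATPase genes and 7 of 12 mitochondrial genes. For the upstream position, the distance and the nearest start, no value over all bound genes is given here. These counts are therefore not shown to be particular to the members.

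**Figure D4:**
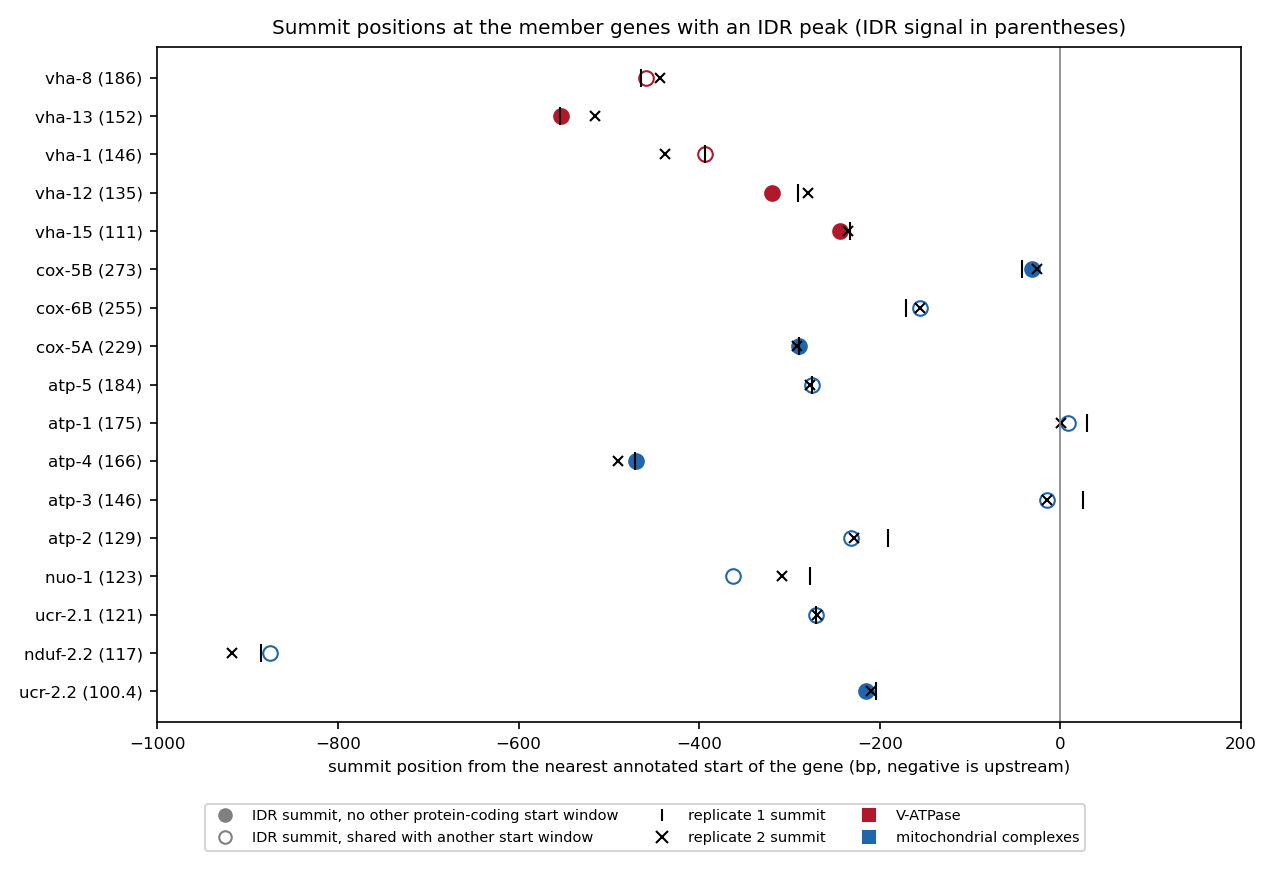
Circles give the position of the IDR summit from the nearest start of each of the 17 bound genes, in bp, with the summits of replicate 1 (bars) and replicate 2 (crosses), V-ATPase genes on top. Open circles mark summits that also lie in another protein-coding start window; the V-ATPase summits run from 244 to 553 bp upstream, and those of atp-1, atp-3 and cox-5B sit within 31 bp of the start.

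By chromosome, the X held 5 of the 57 genes and 4 of them were bound, namely vha-12, vha-15, ucr-2.1 and ucr-2.2, but not vha-20. The share of all X-linked protein-coding genes that were bound was 7.76%. Chromosome V had 3 of 6 bound, beside 4.06% of its protein-coding genes, and chromosome III had 5 of 14, beside 9.73%. Chromosome IV had 1 of 11, beside 6.19%, chromosome II 1 of 7, beside 6.35%, and chromosome I 3 of 14, beside 8.93%.

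A further 48 genes of the same machines and of neighbouring steps carry other symbols. Of these, 10 were bound, 20.8%, beside 6.76% of all nuclear protein-coding genes. Complex II, succinate dehydrogenase, had mev-1 with an IDR signal of 149 and sdha-1 with 111. Within complex III, the Rieske protein gene isp-1 had 138 and the cytochrome c1 gene cyc-1 had 142. The electron carrier cytochrome c, gene cyc-2.1, had 132. The highest of the 10 beside nduc-2, which shares the summit of cox-6B, was sco-1, a copper chaperone gene for complex IV, with 209. The complex I gene ndua-2 had 204, the ubiquinone synthesis gene coq-3 had 154 and the ADP/ATP carrier gene ant-1.1 had 150.2. Of 21 complex I genes by other symbols, 2 were bound, ndua-2 and nduc-2. In the nduf- and nuo- groups it was 2 of 12. Of 5 ATP synthase subunit genes by other symbols, asb-1, asb-2, asg-1, asg-2 and hpo-18, 0 were bound, against all 5 atp- genes. Pooled signals were 69.8 at asg-2, 52.3 at asb-2 and 35.6 at hpo-18, and asb-1 and asg-1 had no pooled region. The ATPase inhibitor genes mai-1 and mai-2 had pooled signals of 93.2 and 45.0 and no IDR summit.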

How the data were processed

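The data are ChIP-seq of tagged RNT-1 in 1 group of 2 biological replicates with 1 library each. Per the file descriptions deposited with the samples, the lists derive from alignments of the replicates and a control alignment, on ce11. The programs used for alignment and peak calling, and the IDR cutoff, are not named by these sources. The value printed as signal is the authors' score for each region, as deposited, whose scale is not stated; the summit is their deposited offset. The ce10 lists were not used. The antibody field reads rnt-1, while the sample notes say anti-GFP.

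Starts, symbols and biotypes came from Ensembl release 115 (WBcel235, the assembly of ce11), and sequence from RefSeq's WBcel235 genome. Positions are 1-based. For each gene the region with the highest signal and a summit in the window was taken, from each list. Words were searched on both strands within 50 bp of the summit. The intervals of shares are 95% Wilson intervals, and Newcombe's for the difference (SciPy 1.17.1, Python 3.11.15). For medians, used only to judge the dependence on processing, they are 95% intervals between ordered values, placed by the binomial distribution. The window assignment was tested on made-up genes with known answers.

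The members, the lists and the words other than GGTCTC were chosen with earlier results of these data known, and GGTCTC after the printed windows were read. No test was run, because the samples form 1 group and genes are not replicates. Genes were named by a rule: every vha- gene, every bound gene, the 3 strongest unbound genes per mitochondrial prefix, every gene without a pooled region and every bound gene of the related list. The genes cox-10, cox-16, nduf-7 and unc-32 were added for completeness.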

Additional observations from a re-analysis of the deposited data

Results flagged for a closer look

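The list of replicate 1 held 14 regions on the mitochondrial chromosome, above the count floor of 3 used for flagging, while that of replicate 2 held 0. The floor is a rule for flagging and not a test of the replicates. These regions are outside the nuclear genes compared in the report. In replicate 1 they included 2 summits each in ND5, COX3, COX1 and CYTB, which encode subunits of complexes I, IV and III, with highest signals of 485, 382, 314 and 234. The IDR list held 8 mitochondrial regions and the pooled list 9. In either replicate list ATP6, the mitochondrial gene of the ATP synthase, had none, and neither did COX2, ND3 and ND4L, of complexes IV and I. What set the replicates apart here was not tested.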

How the results depend on the processing

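Of 52 alternative values over 8 results, 44 lay within the 95% interval of the reported value, 8 lay outside it and 0 reversed. These intervals are wide: within them the V-ATPase share ran from 15 to 35%, and its median pooled signal, 88.5 in the report, was 63.0 with either other window size. The share of all protein-coding genes bound, 6.76% in the report, was 5.11% with a window of 500 bp upstream to 100 bp downstream and 9.17% with 2000 bp to 500 bp. It was 6.11% with the outermost start only, 8.35% with the nearest start, 7.37% with any base of the peak in the window and 3.71% with the 965 strongest peaks. With those peaks the mitochondrial share was 18.9%. The V-ATPase ranged from 3 to 7 bound genes and the mitochondrial complexes from 7 to 14, and the difference stayed negative, from -9.73 to -1.62 points. The wide window added vha-2 and vha-3, both of the Vo sector. With the nearest start, vha-8, atp-5, cox-6B, nduf-2.2, nuo-1 and ucr-2.1 were lost and nduf-7 was gained. Leaving out each replicate in turn, the median rank of V-ATPase genes with a region was 14.7% to 31.8% of the list, against 13.2% pooled, and that of mitochondrial genes 10.6% to 12.3%, against 10.3%. The 31.8% is the value without replicate 2. The causes were not tested. Depth is unknown, so a gene without a region cannot be told from one whose region was not detected. With 1 group of 2 replicates, no value compares conditions.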
